A study of Mus musculus with 9 samples.

Results

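Gastrocnemius muscle of mice that lacked p38alpha in skeletal muscle was compared with gastrocnemius of control mice, by poly(A) RNA sequencing. All mice had eaten a high-fat diet for 6 weeks. The comparison holds 6 of the 9 libraries of the series, 3 of genotype p38alphaMCK-KO (knockouts 1 to 3) and 3 of genotype control (controls 1 to 3), and takes in 13137 of the 13179 genes listed. The other 3 libraries came from p38alpha/gammaMCK-KO mice, which lack 2 members of the kinase family in muscle. They enter the estimate of spread and 1 short comparison. MCK denotes the muscle creatine kinase promoter, which is active in differentiated muscle fibres, so the gene is not targeted in the vessels, nerve, connective tissue and blood cells of the same muscle. The strain, sex, age and number of donor animals, and the alleles carried by the controls, are not given in the sources used here. Nothing states that the libraries of 1 group came from separate animals, so the p-values measure the spread between these samples, which may in part be technical.

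p38alpha, encoded by Mapk14, is a stress-activated protein kinase. It is switched on by the kinases encoded by Map2k3 and Map2k6 and passes the signal to substrate kinases such as MK2 and to transcription factors such as the MEF2 family. In skeletal muscle the pathway responds to contraction, inflammation and metabolic load, and it has been studied for its part in myoblast differentiation, in the expression of Ppargc1a (the coactivator of mitochondrial genes) and in inflammatory signalling. The title of the series names IL-15, a cytokine that muscle releases, and locomotor activity.

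Values are the deposited normalised counts, tested with limma on log2(value + 1) across all 9 libraries. A gene was called when its Benjamini-Hochberg adjusted p was below 0.05, and a fold change is on the log2(value + 1) scale, which understates the change of genes near 0. In the knockouts 2332 genes (17.8%) were called, of which 962 (7.32%) rose and 1370 (10.4%) fell. Of these, 171 rose and 119 fell at least 2-fold. Most changes were of less than 2-fold. The calls depended on which libraries were present, and 660 genes (5.02%) were called in the full fit and in each of the 9 fits that left out 1 library. These are termed called throughout: 202 rose (1.54%) and 458 fell (3.49%).

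The knockout libraries differed among themselves more than the controls did. Over the tested genes the median SD of log2(value + 1) was 0.199 in the knockouts and 0.103 in the controls. Knockout 1 stood apart: it correlated with the controls at r = 0.950 to 0.951 across genes, where knockouts 2 and 3 reached 0.976 to 0.979, and genes are not independent replicates. Knockout 1 held the highest knockout value of 60.9% of the genes that rose and the lowest of 69.0% of those that fell. Without it 2343 genes (17.8%) were called, 1877 of them shared with the full fit. The count fell when a control library was left out, to 852 without control 1, 1034 without control 2 and 837 without control 3. It was 1456 without knockout 2 and 3257 without knockout 3. Rises over all tested genes numbered 292, 393 and 287 without controls 1 to 3, and 941, 505 and 1501 without knockouts 1 to 3. Falls numbered 560, 641 and 550, and 1402, 951 and 1756, in the same order. Counts of list members in these fits are to be read against those numbers. Inferred depth was about 24200000 to 27900000 reads per library in these 6 libraries. The deposited values summed to 897000, 980000 and 993000 in knockouts 1 to 3 and to between 1058000 and 1132000 in the controls.

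The tissue label fitted the markers: the 8 muscle fibre markers, among them Acta1 and Ckm, summed to 134760, 124800 and 136000 in the controls and 74956, 102620 and 109300 in the knockouts. Markers of neutrophils were not among the genes listed, and 3 of 14 lymphocyte and mast cell markers were tested. In bulk muscle, fewer cells of a type and less RNA per cell cannot be told apart.

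The targeted gene was checked first. Mapk14 (ENSMUSG00000053436, chr17:28691329-28748406, GRCm38) measured 143, 149 and 157 in the controls and 43.8, 45.5 and 40.3 in the knockouts. The groups were far apart and each was tight, so the targeted gene was low in all 3 libraries labelled as knockouts. The part of the gene that was deleted is not given in the sources used here. Its level was 3.41-fold lower, with a log2 change of -1.77 ± 0.13 (SE) and a limma adjusted p of 0.00021. The exact permutation test (two-sided, 3 libraries a group) cannot go below p = 0.1 and returned that value.

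Of the other p38 kinases measured, 1 fell and 1 did not pass the test. Mapk12, which encodes p38gamma, measured 139.9, 138 and 152 in the controls and 96.5, 103 and 105 in the knockouts. It fell, to 1.41-fold lower (adjusted p = 0.006), without overlap between the groups and in all 9 fits without 1 library. Mapk11, which encodes p38beta, stayed low at 2.21, 1.96 and 1.37 against 2.43, 1.56 and 1.23 and did not pass the test (adjusted p = 0.83). Mapk13 was not tested.

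Upstream of p38 the data moved in both directions. Map2k6 (MKK6), an activating kinase of p38, measured 19.8, 19.7 and 18.5 in the controls and 63.9, 83.8 and 104 in the knockouts. Every knockout exceeded every control by a wide margin, and the level was 4.098-fold higher (adjusted p = 0.00021). Map2k3 (MKK3), the other main activator, measured 183, 172 and 188 against 238, 302 and 374 and was 1.65-fold higher (adjusted p = 0.016). Gadd45a, a stress-induced protein that can activate the kinases above p38, measured 30.2, 15.9 and 23.6 against 94.2, 82.7 and 179.6 and was 4.81-fold higher. In contrast Tab2, an adaptor of the kinase TAK1, fell from 162, 152 and 168 to 62.7, 85.999 and 88.5. Map3k7, which encodes TAK1 itself, fell from 70.9, 65.9 and 65.1 to 39.9, 47.3 and 46.8, and Map2k4 (MKK4), which acts mainly on JNK, from 92.3, 94.6 and 93.3 to 52.4, 65.7 and 68.3. Of 18 activating kinases and adaptors tested, 3 rose and 5 fell, against 7.32% and 10.4% of all genes. Of these 8, 5 were called throughout: Map2k6, Gadd45a, Map2k4, Map3k7 and Tab2.

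Downstream, 2 of 7 substrate kinases fell, against 10.4% of all genes. Neither was called without control 1, control 3 or knockout 2, under quantile normalisation or with the 6 libraries alone. They were Mapkapk2 (MK2), at 319, 287 and 306 against 248, 243 and 212, and Mapkapk5, at 67.4, 62.7 and 70.5 against 51.9, 52.8 and 54.97, and both changes were small (1.299-fold and 1.25-fold). Among 10 substrate transcription factors Ppargc1a rose, from 28.7, 30.4 and 23.7 to 41.1, 52.2 and 41.5 (1.605-fold, adjusted p = 0.0073), while Mef2c, at 558, 542 and 535 against 487, 366 and 298, passed the test in the full fit (adjusted p = 0.037) but in only 1 of the 9 fits without 1 library, the one without knockout 1. The 14 MAPK phosphatases tested, which switch these kinases off, gave 1 rise (Dusp5) and 2 falls (Dusp26 and Ppm1a), which is near the shares of 7.32% and 10.4% over all genes. Among 13 JNK and ERK pathway kinases Mapk6, Mapk9 and Map2k1 fell and none rose, against 10.4% and 7.32% of all genes.

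Il15, which encodes the cytokine in the series title, measured 7.72, 5.08 and 5.01 in the controls and 11.5, 11.2 and 7.74 in the knockouts. The groups did not overlap, but control 1 and knockout 3 were nearly equal. The difference was 1.61-fold (log2 0.69 ± 0.19 (SE), adjusted p = 0.037). The call was made in 3 of the 9 fits without 1 library, and the exact permutation p was 0.1. None of the other 7 tested genes of the receptor and its JAK-STAT signal was called by limma. At an unadjusted p under 0.05, 2 of the 8 genes were higher and 1 was lower.

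**Figure D1:**
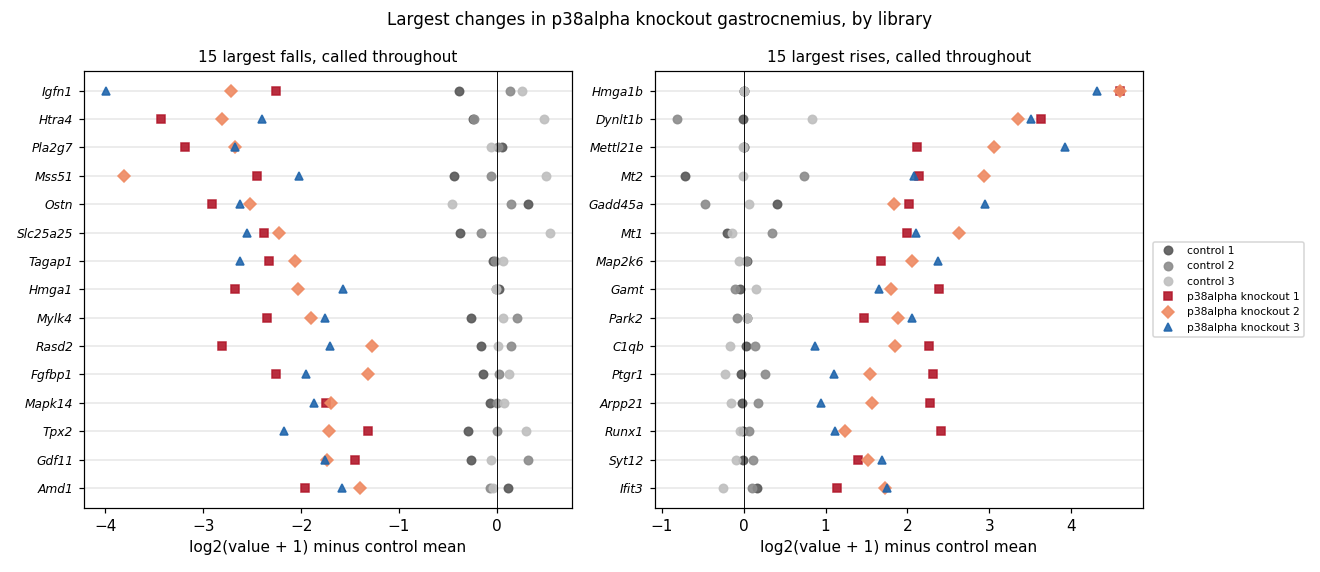
Difference of each library from the control mean, on the log2(value + 1) scale, for the 15 largest falls (left) and 15 largest rises (right) called throughout; grey circles are controls, coloured symbols the 3 knockouts. Controls lie near 0 and all 3 knockouts lie to 1 side of them for every gene, as the choice of genes required.

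The genes with the largest falls came from several classes of protein. They were picked for non-overlapping groups, a mean of at least 5 in a group and a call throughout, so their separation is a matter of choice. Igfn1, a Z-disc protein of the immunoglobulin family, measured 36.5, 52.7 and 57.7 in the controls and 9.24, 6.49 and 2.08 in the knockouts. Mss51, a muscle protein linked to mitochondria, measured 190.4, 248 and 367 against 46.4, 17.5 and 63.1. The secreted factor osteocrin, Ostn, which binds the natriuretic peptide clearance receptor, measured 34.9, 30.8 and 20.005 against 2.84, 4.02 and 3.68. Pla2g7, a secreted hydrolase of platelet-activating factor, was nearly uniform within each group, at 101, 98.4 and 93.6 against 9.83, 14.5 and 14.5, and was 7.19-fold lower (adjusted p = 2.4e-05). Slc25a25, a calcium-dependent mitochondrial ATP-magnesium carrier, fell from 61.5, 71.9 and 117 to 14.7, 16.4 and 12.9. Mylk4, a myosin light chain kinase family member, fell from 1234, 1710.2 and 1552 to 289.9, 397 and 439. Gdf11, a relative of myostatin, fell from 11.3, 17.4 and 13.2 to 4.41, 3.42 and 3.36, and the serine protease Htra4 from 15.3, 15.4 and 25.9 to 0.787, 1.76 and 2.65. The rest were Tagap1, Hmga1, Rasd2, Fgfbp1, Tpx2 and Amd1, beside Mapk14.

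Among the largest rises, Mettl21e, a muscle lysine methyltransferase, measured 2.09, 2.07 and 2.06 in the controls and 12.4, 24.5 and 45.5 in the knockouts. The controls were almost identical and the knockouts spread from low to high in the same order as Map2k6. Gamt, which makes creatine from guanidinoacetate, measured 8.04, 7.64 and 9.38 against 47.8, 31.6 and 28.4 and was 3.86-fold higher (adjusted p = 0.0015). Park2, the ubiquitin ligase Parkin of mitophagy, measured 5.53, 4.997 and 5.53 against 16.6, 22.5 and 25.5, whereas Pink1, its upstream kinase, fell from 829.9, 907 and 898 to 490.4, 674 and 632. Runx1, a transcription factor known to rise in denervated muscle, measured 2.49, 2.67 and 2.41 against 17.7, 7.2997 and 6.598. Ptgr1, Arpp21, Syt12, C1qb and Ifit3 completed the set with the metallothioneins.

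Some of these genes share sequence with close copies, and how reads were divided between the copies is uncertain. Hmga1 fell from 36.6, 35.8 and 35.9 to 4.81, 8.07 and 11.5 while Hmga1b went from no read in any control to 23.7, 23.8 and 19.3. Against a floor of 3 reads in each control library, that rise was at least 148-fold. Dynlt1b, at 3.83, 1.76 and 7.65 against 59.2, 48.5 and 54.4, and Tagap1, at 19.9, 20.1 and 21.5 against 3.28, 4.15 and 2.47, also have close copies. Hmga1, Dynlt1b and Tagap1 lie on chromosome 17, the chromosome of Mapk14, and Hmga1b on chromosome 11. On chromosome 17, 58 of 624 tested genes (9.29%) were called throughout, against 5.02% of all genes.

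Most repressors of the circadian clock were lower in the knockouts. The clock is a loop in which CLOCK and BMAL1 (encoded by Arntl) drive genes through E-box sequences, and the PER, CRY, REV-ERB (Nr1d1, Nr1d2), CHRONO (Ciart) and DEC (Bhlhe40, Bhlhe41) proteins repress that drive. Of 10 repressors tested, 7 fell and none rose, against 10.4% of all genes lower. Their median log2 change was -0.81, where that of all tested genes was 0.01. In 8 of the 10 all knockouts lay below all controls, where the groups did not overlap in 38.6% of all genes, counting both directions. At an unadjusted p under 0.05 the repressors gave 8 falls and no rise. Without knockout 1 the count was again 7, and it ranged from 5 to 8 over the fits without 1 library.

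Ciart measured 5.41, 7.64 and 11.4 in the controls and 1.12, 2.24 and 2.58 in the knockouts and was 3.04-fold lower (adjusted p = 0.0063). Cry1 measured 12.8, 11.6 and 12.98 against 6.75, 5.68 and 6.92, with each group tight. Nr1d2 fell from 109.99, 119 and 109 to 50.5, 67.7 and 60.8. The 2 DEC genes moved alike: Bhlhe40 measured 119, 117 and 158 against 73.5, 72.9 and 74.9 and Bhlhe41 59.3, 48.6 and 64.96 against 31.7, 33.5 and 32.7. Those 5 were called throughout, whereas Per2, at 6.58, 13.4 and 8.78 against 2.84, 4.51 and 3.82, and Nr1d1, at 178, 139 and 189 against 118, 116 and 128, lost the call in some fits. Per1 did not pass (adjusted p = 0.092): its 3 values were 18.7, 48.8 and 47.1 against 54.01, 60.5 and 74.5. Of the output factors, which carry clock time to other genes, Dbp fell from 57.2, 88.9 and 92.6 to 21.5, 28.5 and 23.3 (3.12-fold, adjusted p = 0.0025) and Hlf from 12.3, 17.2 and 15.4 to 4.997, 9.24 and 8.27. Among 5 activators Rora fell, from 149, 172 and 152 to 54.9, 84.99 and 122, while Arntl, at 26.9, 11.9 and 21.2 against 20.2, 20.5 and 38.5 (adjusted p = 0.43), and Clock, at 31.05, 27.3 and 29.5 against 23.9, 22.1 and 24.8 (adjusted p = 0.058), did not pass. Npas2, a relative of Clock, measured 1.802, 1.17 and 1.58 against 4.19, 2.65 and 3.54, with every knockout above every control. It missed the threshold (adjusted p = 0.052) and was called in 2 of the 9 fits without 1 library and with the 6 libraries alone. Times of tissue collection are not given in the sources used here, and whether they differed between groups was not tested.

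**Figure D2:**
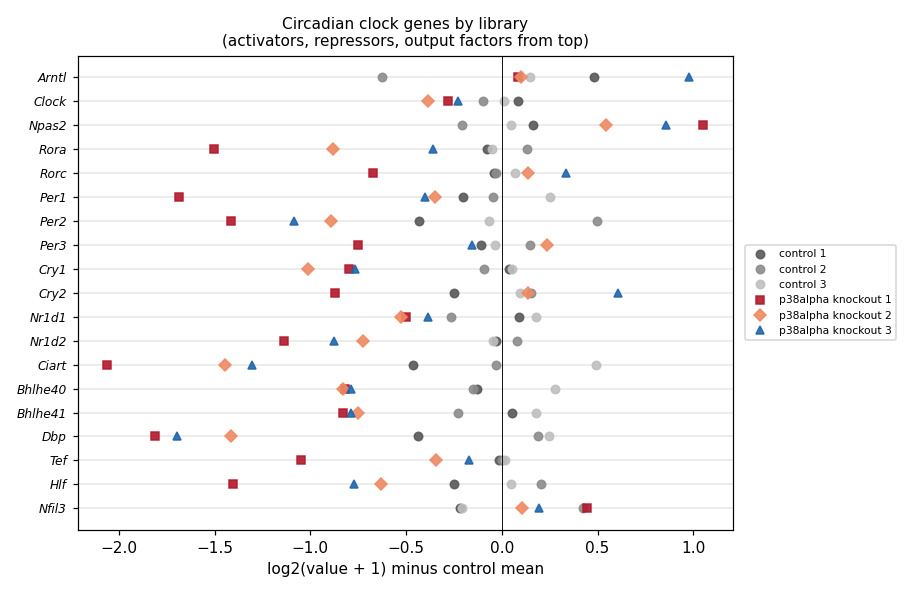
Difference of each library from the control mean, on the log2(value + 1) scale, for the 19 clock genes; grey circles are controls and coloured symbols the 3 knockouts. For Cry1, Nr1d2, Ciart, Bhlhe40, Bhlhe41 and Dbp all 3 knockouts lie left of all controls.

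The promoters of 3 repressors that fell are shown because the E-box through which the clock acts is written in them. Each run is the 250 bases before the annotated start (RefSeq, GRCm38.p6), 5′ to 3′ on the gene's strand, with CACGTG in capitals.
Ciart (chr3:95882229-95882478, minus strand): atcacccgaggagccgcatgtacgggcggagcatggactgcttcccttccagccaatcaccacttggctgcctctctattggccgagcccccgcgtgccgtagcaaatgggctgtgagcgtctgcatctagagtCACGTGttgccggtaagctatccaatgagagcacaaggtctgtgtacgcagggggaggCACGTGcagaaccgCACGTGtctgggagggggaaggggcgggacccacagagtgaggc
Cry1 (chr10:85185055-85185304, minus strand): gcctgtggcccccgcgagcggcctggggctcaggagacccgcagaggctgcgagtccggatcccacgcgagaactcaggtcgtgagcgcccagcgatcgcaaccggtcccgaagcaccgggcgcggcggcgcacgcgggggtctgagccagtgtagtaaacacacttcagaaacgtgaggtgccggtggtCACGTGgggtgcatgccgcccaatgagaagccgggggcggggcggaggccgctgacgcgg
Bhlhe41 (chr6:145865421-145865670, minus strand): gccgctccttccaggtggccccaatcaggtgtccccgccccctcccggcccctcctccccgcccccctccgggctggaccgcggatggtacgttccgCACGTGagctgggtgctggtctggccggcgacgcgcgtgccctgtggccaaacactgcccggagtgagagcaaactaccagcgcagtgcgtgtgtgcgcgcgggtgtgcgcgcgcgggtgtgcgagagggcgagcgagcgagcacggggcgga
Ciart held 3 copies of CACGTG, starting 116, 58 and 44 bases before the start site, and Cry1 and Bhlhe41 held 1 each. The hexamer reads the same on both strands. It occurred in 5 of 16 clock genes with a window and in 6.02% of all 32851 windows. Over the 9798 tested genes with a window it was found in 9.93% of those that rose, 10.3% of those that fell and 10.03% of those not called, counting a gene when any of its windows held it. Besides the genes shown, the 5 clock genes with the hexamer included Per1 and Tef, which were not called. No copy lay in the windows of the fallen repressors Nr1d1 and Nr1d2, or of Dbp, Hlf and Rora, which also fell. A match describes the letters and shows no binding.

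Metallothioneins, small proteins that bind zinc and copper, rose together. Mt1 measured 13.3, 19.9 and 13.9 in the controls and 64.8, 101 and 69.98 in the knockouts, 4.74-fold higher (adjusted p = 0.00052). Mt2 measured 5.45, 16.6 and 9.52 against 45.7, 80.4 and 43.8, and Mt3, a low-level member, measured 0.709, 1.205 and 0.932 against 8.07, 4.31 and 3.82. All knockouts exceeded all controls for the 3 genes. The zinc importer Slc39a14 rose from 10.6, 10.7 and 10.7 to 14.6, 17.01 and 21.04. Of 10 metallothionein and zinc genes, 4 rose and none fell, against 7.32% of all genes higher, and 3 were called throughout. The Mt2 promoter is shown for its metal response elements (core TGCNCNC, either strand), in capitals in the 250 bases before the start.
Mt2 (chr8:94172368-94172617, plus strand): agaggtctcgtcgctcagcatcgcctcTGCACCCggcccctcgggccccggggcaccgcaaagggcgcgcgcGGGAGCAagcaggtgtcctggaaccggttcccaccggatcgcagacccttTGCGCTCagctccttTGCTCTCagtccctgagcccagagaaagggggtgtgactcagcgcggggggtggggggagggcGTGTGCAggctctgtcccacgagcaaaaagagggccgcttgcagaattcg
The Mt2 window held 5 matches to the loose form, a number reached by 0.344% of all windows, while at least 1 match was present in 44.4%. Over the tested genes with a window, a match was found in 56.2% of those that rose, 63.5% of those that fell and 56.7% of those not called.

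In related groups, the haem oxygenase gene Hmox1 rose from 9.74, 8.71 and 7.87 to 13.5, 21.1 and 22.03 and Gpx1, a glutathione peroxidase, from 38.1, 41.97 and 42.9 to 93.3, 64.7 and 71.9. Nqo1, a quinone reductase, moved the other way, from 22.5, 26.4 and 26.98 to 8.04, 11.7 and 12.04. Of 23 antioxidant and Nrf2 genes, 3 rose and 2 fell, near the shares of 7.32% and 10.4% over all genes. Iron genes included a fall of Slc40a1, the iron exporter ferroportin, which measured 53.6, 39.3 and 44.8 in the controls and 15.7, 18.4 and 14.96 in the knockouts (2.69-fold, adjusted p = 0.00043). Hfe2, which encodes hemojuvelin, fell from 658, 609 and 655 to 366, 405 and 425, and Steap3, a ferrireductase, rose from 29.2, 27.9 and 25.99 to 43.8, 38.97 and 41.6. Of 13 iron genes tested, 2 rose and 4 fell, against 7.32% and 10.4% of all genes. The falls numbered 2 without control 1 or control 3, and 1 gene rose without each control in turn, without knockout 1 and without knockout 2.

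Among called genes, the largest falls in deposited value were mainly in genes of the contractile machinery. Acta1, skeletal alpha-actin, measured 30601, 30118 and 34257 in the controls and 20832, 21987 and 20034 in the knockouts. Tpm1, an alpha-tropomyosin, fell from 19384, 18576 and 19884 to 10284, 13140 and 13823, the fast light chain gene Myl1 from 9183, 7894 and 8872 to 4439, 5072 and 5778, and Tnnc2, fast troponin C, from 9302, 8826 and 9996 to 6955, 7152 and 7011. The giant thin filament protein gene Neb fell from 3884, 3743 and 3493 to 1528, 2551 and 2619, lowest in knockout 1. Cmya5, which encodes the Z-disc-associated protein myospryn, fell from 2771, 2991 and 2779 to 971, 1755 and 1838. Under quantile normalisation Acta1 turned to a log2 change of 0.14 (adjusted p = 0.61), so its direction depended on the scaling. The sums of deposited values given above were lower in the knockouts, and their part in these falls was not tested. Myl1 and Tmod4, the latter at 414, 416 and 451 against 228, 272 and 313, were called throughout, as was Mylk4. Of the 9 fits without 1 library, Acta1 was called in 5, Tnnc2 in 1, and Tpm1, Neb and Cmya5 in 6 each. Acta1 lost the call without control 1, 2 or 3 and without knockout 2. It also lost it with the 6 libraries alone (limma adjusted p = 0.071) and with the replicate block (limma adjusted p = 0.065). Myh4, whose level differed by more than that of Acta1, did not pass the test and is described with the differences between libraries. Of 43 sarcomere genes 3 rose and 9 fell, against 7.32% and 10.4% of all genes. Without controls 1, 2 and 3 the falls numbered 4, 3 and 3, where those over all tested genes numbered 560, 641 and 550. Under quantile normalisation 5 sarcomere genes fell, and 1118 of all tested genes.

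The largest rises in deposited value among called genes were smaller. Malat1, a nuclear long noncoding RNA, measured 338, 384 and 392 in the controls and 953, 806 and 678 in the knockouts. Mybph, a myosin-binding protein, rose from 143, 184 and 162 to 304, 543 and 625, and Hadh, a beta-oxidation dehydrogenase, from 259, 195 and 227 to 399, 385 and 304. Tecr, of fatty acid elongation, rose from 271, 281 and 285 to 389.5, 365 and 437, the aspartate transaminase gene Got1 from 402, 297 and 327 to 488, 475 and 417 and the cartilage matrix gene Cilp from 51.99, 48.2 and 54.1 to 273, 113 and 76.1. Hadh and Malat1 were called throughout. Of the 9 fits without 1 library, Tecr was called in 8, Cilp in 5, Mybph in 3 and Got1 in 2.

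Genes of excitation and calcium release were lower in the knockouts more often than they were higher. Of 38 calcium handling genes 3 rose and 11 fell, against 7.32% and 10.4% of all genes. The falls numbered 14 without knockout 1, 3 without each of controls 1, 2 and 3 in turn, and 5 under quantile normalisation. Jph2, a junctophilin that holds the triad membranes together, measured 674, 668 and 741 in the controls and 394, 385 and 294 in the knockouts. Its partner Jph1 fell from 352, 414 and 413 to 153, 213 and 264. Both were called throughout. The release channel gene Ryr1 fell from 3472, 3554 and 3271 to 1377, 2422 and 2488. The genes of sarcolipin (Sln), which inhibits the calcium pump, and of the slow-type calsequestrin (Casq2) rose: Sln measured 1.36, 1.76 and 1.37 against 60.97, 11.8 and 7.84 and Casq2 28.01, 27.3 and 29.7 against 169, 90.04 and 37.1, both highest in knockout 1.

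Of 14 surface channel genes 7 fell and none rose, against 10.4% and 7.32% of all genes, with a median log2 change of -0.52. Without knockout 1 the count was 8 falls and 2 rises, and without controls 1, 2 and 3 it was 4, 4 and 5 falls. Scn4a, the muscle sodium channel, measured 407, 389.9 and 398 in the controls and 158, 249 and 262 in the knockouts. Kcnj11, a subunit of the ATP-sensitive potassium channel, was tight within groups at 169.7, 150.2 and 151 against 91.1, 87.3 and 97.8 (1.698-fold lower, adjusted p = 0.00093). Kcnj12 and Kcna7 were also called throughout. In the dystrophin complex 3 of 18 genes fell, against 10.4% of all genes, with 2 falls without each control in turn and 6 without knockout 3: Dmd went from 81.4, 81.1 and 73.8 to 31.7, 48.5 and 49.4, Nos1, the neuronal nitric oxide synthase, from 83.7, 78.4 and 80.4 to 30.2, 32.2 and 32.7, and Sgcb from 113, 111 and 113 to 80.9, 92.3 and 97.6.

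The denervation response list holds genes known to change, in either direction, when muscle loses its nerve. Of its 19 tested genes 9 rose and 3 fell, against 7.32% and 10.4% of all genes. The rises numbered 9 without knockout 1, 5 without knockout 2, and 4, 5 and 3 without controls 1, 2 and 3. Myog, a myogenic factor, measured 4.11, 6.14 and 5.35 against 29.6, 14.1 and 11.9, and the cell cycle inhibitor Cdkn1a measured 35.6, 27.9 and 37.4 against 128, 76.3 and 78.1. Among acetylcholine receptor genes Chrna1 rose from 19.5, 15.9 and 12.5 to 83.3, 36.5 and 27.7 and the fetal subunit Chrng from 0.142, 0.0197 and 0.195 to 14.8, 3.46 and 1.23. Knockout 1 was highest for both, and neither was called throughout. The falls were Amd1, Smox and Fgfbp1. The fetal myosin genes Myh3, at 2.61, 4.01 and 4.05 against 106, 28.7 and 10.5, and Myh8, at 2.09, 1.797 and 1.19 against 63.3, 15.6 and 6.42, rose with the fusion genes Mymk and Mymx. Of 14 fusion and regeneration genes 5 rose and 1, Igfn1, fell, against 7.32% and 10.4% of all genes. Igfn1 was called throughout and none of the rises was. The rises numbered 2 without knockout 1, and 0 without knockout 2 and without each control in turn. Satellite cell markers summed to 3.93, 3.16 and 3.16 in the controls and 4.76, 5.01 and 3.81 in the knockouts. The part of these cells in the fetal genes was not tested.

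Glycogen enzymes were mostly lower. Of 18 genes of glycogen synthesis and breakdown 7 fell and 1 rose, against 10.4% and 7.32% of all genes. The falls numbered 3 without each control in turn and 4 under quantile normalisation. Phka1, the muscle regulatory subunit of phosphorylase kinase, measured 1097, 1041 and 1007 in the controls and 286, 408 and 446 in the knockouts and was 2.802-fold lower (adjusted p = 0.00071). Gyg, the glycogenin primer, fell from 409.8, 434 and 455 to 230.04, 289 and 310.1 and Pgm2, a phosphoglucomutase, from 1376, 1287 and 1292 to 639, 891 and 943. Those 3 were called throughout. In glycolysis Pfkm, the muscle phosphofructokinase, fell from 5139, 4327 and 4674 to 2848, 3442 and 3712, and was called in 4 of the 9 fits without 1 library. Of 21 glycolytic enzymes 4 fell and 1 rose, against 10.4% and 7.32% of all genes. No enzyme fell by the test without control 1, 2 or 3, without knockout 2 or with the 6 libraries alone, and 2 fell under quantile normalisation. The insulin-responsive glucose carrier gene Slc2a4 measured 416, 374 and 401 against 311, 334 and 338 and missed the threshold (adjusted p = 0.06).

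Over all genes 7.32% rose and 10.4% fell, and most lists of fuel oxidation genes held few calls. None of 36 nuclear subunits of oxidative phosphorylation was called by limma, at a median log2 of 0.23, and none of 15 branched-chain amino acid genes. At an unadjusted p under 0.05, 11 of the former were higher and none lower, and of the latter 1 was higher and 1 lower. The subunits summed to 18970, 16020 and 17664 in the controls and 22134, 19612 and 18390 in the knockouts, highest in knockout 1. Without knockout 3, 8 of the subunits rose, and 13 rose under quantile normalisation, where 1501 and 891 of all tested genes rose. Of 13 mitochondrially encoded subunits 1 fell (mt-Nd4l) and none rose. Their median log2 was -0.23, with 2 members above 0 and 11 below. Of 20 tricarboxylic acid cycle genes 3 rose (Dlst, Idh1 and Sdhd) and none fell. The rises numbered 1 without each control in turn, without knockout 1 or without knockout 2. Of 30 fatty acid uptake and oxidation genes 2 rose (Hadh and Ucp2), near the share over all genes, and 1 fell (Ucp3). The uncoupling proteins went apart: Ucp2 measured 20.3, 26.8 and 20.4 against 61.3, 53.6 and 44.6 and Ucp3 286, 281 and 247 against 83.4, 162 and 171. Srebf1, the lipogenic transcription factor, fell from 65.8, 61.8 and 76.6 to 34.3, 33.7 and 35.3 (1.94-fold, adjusted p = 0.00066), and Me1, malic enzyme, from 402, 413 and 451 to 134, 200.4 and 246. Plin3, a lipid droplet coat protein, rose from 37.4, 31.1 and 29.4 to 70.1, 77.6 and 70.8. Prkab2, a regulatory subunit of AMPK, fell from 478, 439 and 461 to 126, 213 and 244.

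Genes of the regulated steps of polyamine synthesis fell. Odc1, ornithine decarboxylase, measured 294, 338 and 369.6 in the controls and 116, 129 and 196 in the knockouts (2.31-fold lower). Amd1, which supplies the aminopropyl groups, fell from 1836, 1609.5 and 1647 to 435, 641 and 565, with its near-identical copy Amd2, and Smox, a spermine oxidase, from 369.5, 301 and 297 to 177, 249 and 211. Sat1, which acetylates polyamines for breakdown or export, rose from 15.7, 17.4 and 15.2 to 29.6, 24.7 and 22.96. Of 13 polyamine genes tested 1 rose and 4 fell, against 7.32% and 10.4% of all genes.

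Macrophage and MHC class II genes were higher in the knockouts, and in steps from library to library. Of 22 macrophage and monocyte markers 16 rose and none fell, against 7.32% and 10.4% of all genes, at a median log2 change of 0.98. None was called throughout: the count was 9 without knockout 1, 4 without knockout 2, 0 without control 1, 6 without control 2 and 1 without control 3. Over all tested genes the rises in these fits numbered 941, 505, 292, 393 and 287. In 20 of the 22, knockout 1 exceeded knockout 2 and knockout 2 exceeded knockout 3. Their summed level was 104, 136 and 103 in the controls and 417, 314 and 187 in the knockouts, without overlap between the groups. Lyz2, a lysozyme, measured 31.6, 39.95 and 30.7 in the controls and 135, 98.9 and 60.6 in the knockouts, and the lysosomal glycoprotein gene Cd68 2.77, 3.18 and 2.796 against 14.99, 11.5 and 5.495. Lgals3, galectin-3, rose from 3.42, 7.801 and 7.48 to 51.1, 28.1 and 18.9. Adgre1 (F4/80), at 2.77, 3.38 and 2.84 against 7.71, 6.69 and 3.79, and the resident macrophage marker Cd163, at 5.97, 10.1 and 4.49 against 7.16, 9.73 and 8.09, did not pass (adjusted p = 0.064 and 0.51).

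All 7 tested MHC class II genes, which present antigen, rose, against 7.32% of all genes, and in the same order of libraries. Cd74, the invariant chain, measured 51.7, 60.6 and 46.3 in the controls and 188, 125 and 89.96 in the knockouts and was called throughout, and H2-Aa measured 21.7, 25.5 and 19.2 against 67.6, 45.96 and 32.2. The count was 4 without knockout 2 and 1 without control 1 or control 3. The 4 other listed class II genes were not in the table. Complement C1qb, made by macrophages, rose from 8.93, 9.74 and 7.65 to 45.6, 34.1 and 16.7. Among chemokines Ccl6 rose from 4.7999, 7.37 and 5.79 to 19.8, 19.7 and 11.6 and Ccl9 from 4.31, 4.56 and 4.96 to 15.1, 13.2 and 7.77, both called throughout. The part of macrophage number in these values was not tested.

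Interferon-stimulated genes rose in 12 of 31 cases with no fall, against 7.32% and 10.4% of all genes, at a median log2 of 0.51. Without knockout 1 or under quantile normalisation 7 rose. The count was 5 without knockout 2 and 4, 6 and 3 without controls 1, 2 and 3. In 2 other immune lists fewer genes were called. Of 19 MHC class I and immunoproteasome genes 4 rose (Psmb8, Psmb10, Tap2 and Tapbp), against 7.32% of all genes, and none was called throughout. Of 17 interferon-inducible GTPases none rose and 1, the pseudogene BC023105, fell, against 7.32% and 10.4% of all genes. At an unadjusted p under 0.05 limma gave 1 rise and 1 fall among the GTPases. They summed to 252, 180.2 and 171 in the controls and 155, 177 and 284 in the knockouts, lowest in knockout 1. Ifit3 measured 6.83, 6.46 and 4.83 in the controls and 14.3, 22.1 and 22.4 in the knockouts, lowest of the knockouts in knockout 1. Its close copy Ifit3b measured 6.58, 4.17 and 7.61 against 10.2, 17.9 and 24.2, and reads of the pair may have been divided between them. Rsad2, which encodes the antiviral protein viperin, measured 9.499, 8.47 and 7.26 against 17.5, 15.3 and 15.5 and Ifi35 9.46, 10.1 and 9.38 against 21.9, 17.6 and 15.2. The promoters of Ifit3 and Rsad2 are shown for the interferon-stimulated response element, here GAAA, any 2 bases and GAAA again on either strand, in capitals in the 250 bases before the start.
Ifit3 (chr19:34583279-34583528, plus strand): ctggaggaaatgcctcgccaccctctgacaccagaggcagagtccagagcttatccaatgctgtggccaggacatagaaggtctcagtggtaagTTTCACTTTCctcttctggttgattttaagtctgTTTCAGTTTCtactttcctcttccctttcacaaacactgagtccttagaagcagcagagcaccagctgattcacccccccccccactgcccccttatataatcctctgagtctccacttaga
Rsad2 (chr12:26456453-26456702, minus strand): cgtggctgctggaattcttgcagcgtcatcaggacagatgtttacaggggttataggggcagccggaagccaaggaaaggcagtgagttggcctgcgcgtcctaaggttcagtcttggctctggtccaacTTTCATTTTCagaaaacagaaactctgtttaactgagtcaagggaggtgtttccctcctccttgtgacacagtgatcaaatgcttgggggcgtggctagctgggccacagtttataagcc
In both genes it lies on the opposite strand and so reads as TTTC on each side of the 2 free bases. It occurred in 9 of 21 interferon-response genes with a window and in 2.98% of all windows. Beside Ifit3, Ifit3b, Rsad2 and Bst2, which rose, the 9 included Ifit1, Isg15, Stat2, Oas1a and Trim30a, which were not called. The element was found in 2.84% of genes that rose, 2.61% of those that fell and 3.18% of those not called. The AP-1 core TGANTCA, searched in the same way, was found in 9.65%, 5.42% and 5.27% of these classes and in 6.75% of all windows.

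**Figure D3:**
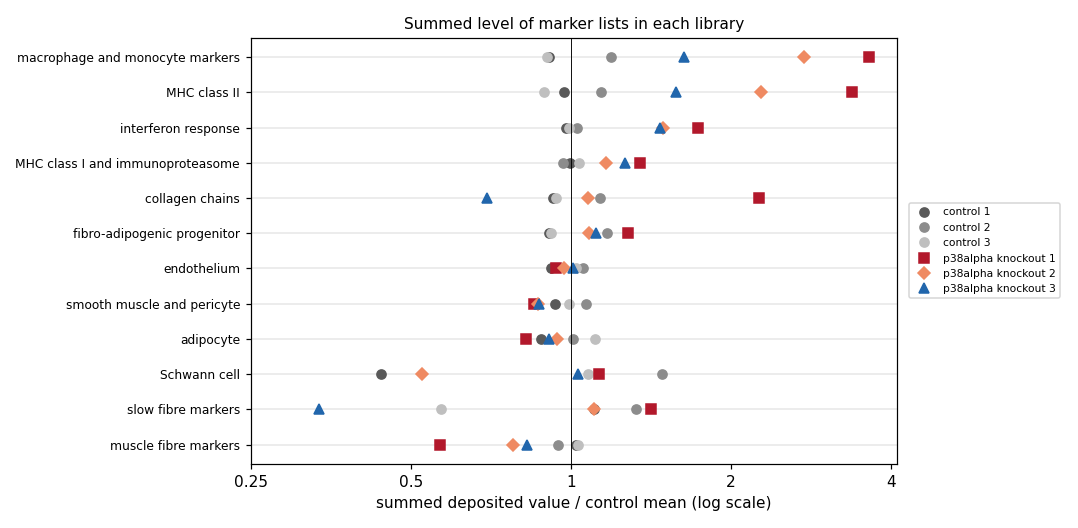
Summed deposited value of each marker list relative to the control mean, on a log axis, with 1 symbol per library. Macrophage markers run from 187 in knockout 3 to 417 in knockout 1, against 103 to 136 in the controls, while endothelial markers overlap between groups.

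Calls among markers of other cells are given with the shares over all genes, 7.32% higher and 10.4% lower. Endothelial markers summed to 1220.1, 1404 and 1362 in the controls and 1249, 1291 and 1341 in the knockouts. Of 16 tested, 1 rose and none fell, near the share of all genes that rose. Fibro-adipogenic progenitor markers summed to 1686, 2167 and 1697 in the controls and 2374, 2006 and 2063 in the knockouts. Of 15 tested, 1 rose, again near that share, and none fell. Without knockout 3, 6 rose, where 1501 of all tested genes did. Smooth muscle and pericyte markers were lower in all knockouts, at 896, 1025 and 953 in the controls and 818, 831 and 835 in the knockouts, with 1 rise and 3 falls among 12. The falls numbered 1 without each control in turn, without knockout 2 or under quantile normalisation. Adipocyte markers overlapped, with 1 rise (Adig) and 1 fall among 12, near the shares of all genes. The fall was Lep, the leptin gene, at 3.34, 33.04 and 29.2 against 1.08, 0.95 and 3.01, with control 1 close to knockout 3. No adipocyte marker fell by the test without control 2 or 3, without knockout 1 or 2, or with the 6 libraries alone. Among 22 collagen chains 1 rose and 1 fell, against 7.32% and 10.4% of all genes. Without knockout 3, 7 rose, and without knockout 1, 3 fell, where 1501 and 1402 of all tested genes did. In 17 of the chains knockout 1 exceeded knockout 2 and knockout 2 exceeded knockout 3. Of 24 matricellular genes 3 rose and none fell, against 7.32% and 10.4% of all genes, and none was called throughout. None of the list rose by the test without control 1, without control 3 or with the 6 libraries alone. Of the 3, Postn, which encodes periostin, measured 12.1, 15.7 and 12.2 against 157, 52.9 and 19.6.

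The genes of largest spread among the knockouts are given as a description. Of the 12, 7 carry names of predicted genes or pseudogenes. Gm29216 measured 1836, 0.0202 and 0.0178 in the knockouts and had no read in the controls. Adnp, a homeobox transcription factor, measured 26.2, 0.0202 and 22.6 against 0.101, 0.0592 and 0.0217 in the controls. Like Gm29216, Adnp was near 0 in some libraries and well above it in others, and how its reads were assigned was not tested. C1qtnf3, a secreted C1q relative, measured 20.996, 4.31 and 1.16 in the knockouts. The FoxO-responsive gene 8430408G22Rik (Depp1) measured 15.1, 75.4 and 149 against 21.3, 9.06 and 11.9 in controls, and Nmrk2, a nicotinamide riboside kinase, 57.2, 28.05 and 5.71 against 36.9, 28.6 and 104.

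Among genes of muscle atrophy the knockouts also differed widely. In a list of 20 atrophy genes, which holds ubiquitin ligases and FoxO factors, 2 rose and 4 fell, against 7.32% and 10.4% of all genes. The 2 rises were the metallothioneins Mt1 and Mt2, also counted with the zinc genes. No ubiquitin ligase or FoxO gene was called higher in the full fit. The falls were Fbxo40, Foxo4, Nedd4 and Wwp1. Without knockout 1, 8 rose, where 941 of all tested genes did, and without each control in turn 2 fell. Trim63 (MuRF1) measured 410.4, 331 and 407 in the controls and 217, 753 and 1559 in the knockouts, and Fbxo32 (atrogin-1) 1046, 669.8 and 884 against 301, 1000.2 and 1747. Knockout 1 lay below all controls and knockout 3 above them for both genes, and neither group difference passed (adjusted p = 0.36 and 0.93). Myh4, the fast IIb myosin, measured 54052, 50577 and 52320 against 16781, 40520 and 49300, with all knockouts below all controls and knockout 1 far below (adjusted p = 0.18). Myh7, the slow myosin, measured 382, 469.6 and 146 against 295, 326 and 75.7, low in both control 3 and knockout 3. Slow fibre markers as a list summed to 911, 1092 and 470.2 in the controls and 1166, 912 and 277 in the knockouts. The share of slow fibres in each sample was not tested.

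**Figure D4:**
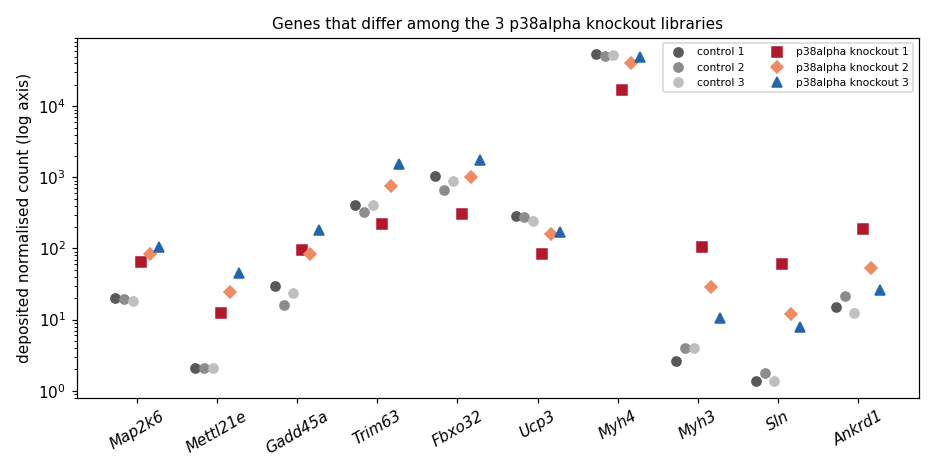
Deposited normalised count on a log axis for 10 genes, with 1 symbol per library. For Trim63 knockout 1 (217) is the lowest library and knockout 3 (1559) the highest, while for Myh3 knockout 1 (106) is the highest.

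The difference from the controls also varied with gene length. The tested genes were divided into 5 equal classes by exonic length. In the shortest class the median difference from the control mean was 0.25 in knockout 1, 0.06 in knockout 2 and 0.05 in knockout 3, on the log2 scale. In the longest class it was -0.18, -0.06 and -0.09. Of the longest genes 4.91% rose and 16.6% fell, and of the shortest 10.7% rose and 5.25% fell. Long genes among those above include Neb, Ryr1, Dmd and Cmya5. The part of length in their falls, and in the rises and falls of the lists above, was not tested.

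**Figure D5:**
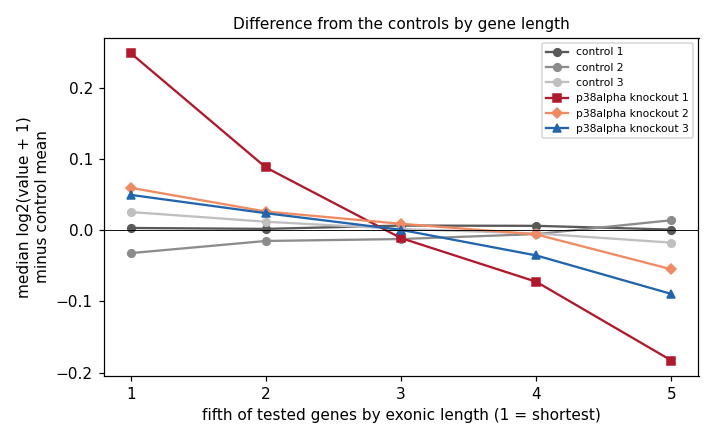
Median difference from the control mean, on the log2(value + 1) scale, for 5 equal classes of the tested genes by exonic length, with 1 line per library. The line of knockout 1 falls from 0.25 to -0.18, the other knockouts fall less, and the controls stay near 0.

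Against the p38alpha/gammaMCK-KO libraries few genes differed. The same fit called 58 genes (0.442%), of which 16 (0.122%) were higher and 42 (0.32%) lower in the p38alpha knockouts. Mapk12, the second gene deleted in the double knockout, measured 96.5, 103 and 105 in the single and 31.2, 35.5 and 32.8 in the double knockouts (adjusted p = 8.9e-06). Mylk4 was lower in the single knockouts, at 289.9, 397 and 439 against 1002, 906 and 969 (adjusted p = 0.0061). Amd1 measured 435, 641 and 565 against 1402, 1039 and 1532 (adjusted p = 0.013) and Dbp 21.5, 28.5 and 23.3 against 54.4, 87.7 and 56.9 (adjusted p = 0.033). Fhl3, a LIM protein, and Bhlhe41 were also lower in the single knockouts (log2 differences -0.85 and -0.81). Mybph was higher, at 304, 543 and 625 against 34.9, 137 and 39.2 (adjusted p = 0.022).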

How the data were processed

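RNA of gastrocnemius with an integrity number above 8 was made into strand-specific poly(A) libraries and sequenced as 51-base single reads, per the labels' protocols. The submitters' processing notes name CASAVA 1.8, cutadapt, RSEM 1.3.1, limma and GRCm38. The authors deposited a normalised count (a signal) per gene. Each value is an odd multiple of the library's smallest, from which depth was inferred; how the scaling was made is not given in the sources used here. The test took genes whose value reached 1 in 3 or more of the 9 libraries and was made with limma 3.58.1 (R 4.3.3, trended empirical Bayes, 6 residual degrees of freedom) on log2(value + 1), and checked on simulated data. The simulated libraries all had the same spread, so the check does not cover the wider spread of the knockouts. Of the simulated calls 7.09% were false. Of simulated 1.5-fold changes 43.8% were recovered, and of 2-fold changes 91.8%. Lengths and positions came from GENCODE M21. Named genes were the 15 largest rises and falls called throughout (groups apart, a mean of at least 5), 8 called genes each way by linear change, 12 by spread, p38 genes, Il15 and members of 79 lists. Members and lists were chosen with earlier results of these data known. Alternatives were other filters, pseudocounts, scalings, spread estimates, the replicate block and each library left out.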

Additional observations from a re-analysis of the deposited data

How the results depend on the processing

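Mapk14 fell in every alternative run, with log2 changes of -1.81 to -1.72 over the fits without 1 library. The count of called genes ran from 837 to 3257 over those fits, of rises from 287 to 1501 and of falls from 550 to 1756. With the 6 libraries alone 1364 genes were called, 508 higher and 856 lower. Planned array weights stopped before convergence and gave 7475 calls, 3745 higher and 3730 lower. Weights estimated gene by gene, chosen after seeing the data, gave 5108, 2425 higher and 2683 lower. The replicate block left 1555 calls, 634 of them higher. Same-numbered libraries did not deviate together (correlations of -0.086, -0.087 and 0.095), so the numbers were not taken to pair the samples. Quantile normalisation turned Acta1 to 0.14 on the log2 scale. Uncalled genes changed sign: Fbxo32 (from -0.63 to 0.63 over the fits without 1 library) went to 0.027 under quantile normalisation, 0.07 without control 1, 0.63 without knockout 1, 0.21 with array weights and 0.22 with weights gene by gene. Mapk11 (from -0.24 to 0.072) went to 0.027 without control 1 and 0.072 without knockout 3. Myh7 (from -1.12 to 0.060) went to 0.060 without knockout 3, 0.34 with array weights and 0.14 with weights gene by gene. Fits without 1 library of a group assume the pair left varies like the others. Values near 0 rest on few reads.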
